A study of Mus musculus with 6 samples.

Results

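Interferon-stimulated genes are the genes that cells switch on when interferon reaches its receptor, and 38 of them were followed here in B16F10 spheroids given BMP2 or PBS. They were chosen by name from known members of the response, with no threshold on a measured value. Earlier results of these data were known when they were chosen. All 38 were found among the 34981 genes of the table. Of these, 36 passed the filter on low counts, as did 12929 genes in all. B16F10 is an established mouse melanoma line. Per the labels, 500 cells were plated in 50 µl of Matrigel, a basement membrane extract, at 7 mg/ml. The 6 cultures were all of this line and matrix and were kept for 10 days, 3 with BMP2 at 100 ng/ml and 3 with PBS. BMP2 is a bone morphogenetic protein, a signal that cells release and that acts through SMAD proteins. The experiment was run 3 times, so each of batches 1, 2 and 3 held 1 BMP2 and 1 PBS culture, and no immune cells or interferon are named in the labels. A single line was used, with 1 culture of each kind in a batch, so the p-values measure the spread between these 6 cultures only.

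Type I interferons bind IFNAR1 and IFNAR2, and the kinases JAK1 and TYK2 then act on STAT2, which works with IRF9 in the transcription factor complex ISGF3. ISGF3 binds interferon-stimulated response elements in promoters, while gamma-activated sites are the elements of the interferon gamma response. The induced proteins sense viral RNA, block its translation, degrade it, trap particles at membranes or feed back on the signal. Tumour cells can also keep part of the set on at a low level without infection.

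None of the 36 members tested passed between BMP2 and PBS in either edgeR fit, with or without batch as a block. The difference between the BMP2 and PBS libraries instead varied from batch to batch, which could not be tested with 1 pair in each. In batch 1 the BMP2 library was higher than its PBS partner for 32 of the 36 members tested, against 51.1% of all genes. In batch 2 it was lower for 31, against 50.2%, and in batch 3 it was lower for 23, against 48.1%. Higher in batch 1 and lower in batch 2 is called the batch pattern below. The PBS libraries of batches 1 and 2 lay far apart, with PBS 2 above PBS 1 by a median of 1.18 on the log2 scale. For the BMP2 libraries, the median of library 2 minus library 1 was -0.26. PBS 1 had the lowest level of all 6 libraries for 23 members, against 30.9% of all genes, and PBS 2 the highest for 21, against 11.6%. The batch pattern held for 27 of the 36 members tested, against 20.6% of all genes. Among the rest, Ddx58 and Oas1a were higher with BMP2 in all 3 pairs, as were 22.7% of all genes. Irf1, Bst2 and Ifitm2 were lower with BMP2 in all 3, as were 21.1% of all genes. Bst2 was nearly level in batch 1, and none of these 3 passed in either edgeR fit.

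Promoter sequences from RefSeq (GRCm38.p6) were matched by symbol for 31 of the 38 members, as windows from 250 bases before to 50 after the start of the gene. Stretches are printed because their genes carry the results below, each running from 160 to 31 bases before the start, 5′ to 3′ on the strand of the gene. Capitals mark matches to the core of the interferon-stimulated response element, a pair of GAAA tracts with any 2 bases between them, on either strand (TTTC tracts where the match is on the other strand), or to the gamma-activated site TTCNNNGAA (N is any base), which is its own reverse complement. Isg15 (chr4:156200849-156200978, minus strand), Ifit1 (chr19:34640729-34640858, plus), Ifit3 (chr19:34583369-34583498, plus) and Rsad2 (chr12:26456483-26456612, minus) stand for the members with the batch pattern. All their matches are response elements, and the 3 of Isg15 overlap in a single run of capitals.

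Isg15: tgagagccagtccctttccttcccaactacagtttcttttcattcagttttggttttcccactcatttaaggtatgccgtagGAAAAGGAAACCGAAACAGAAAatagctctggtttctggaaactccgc

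Ifit1: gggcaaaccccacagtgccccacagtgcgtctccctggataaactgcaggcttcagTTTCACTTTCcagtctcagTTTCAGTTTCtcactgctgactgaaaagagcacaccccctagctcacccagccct

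Ifit3: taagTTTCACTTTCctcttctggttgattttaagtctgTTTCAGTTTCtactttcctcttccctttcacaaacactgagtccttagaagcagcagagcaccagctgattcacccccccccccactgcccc

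Rsad2: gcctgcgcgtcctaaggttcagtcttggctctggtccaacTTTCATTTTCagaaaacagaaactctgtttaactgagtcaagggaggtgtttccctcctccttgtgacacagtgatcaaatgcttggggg

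Irf1 (chr11:53769854-53769983, plus strand), Bst2 (chr8:71537503-71537632, minus) and Ifitm2 (chr7:140955992-140956121, minus) are the 3 members lower with BMP2 in every pair. The capitals of Irf1 are a gamma-activated site, that of Ifitm2 a response element, and the run of Bst2 a gamma-activated site that overlaps 2 response elements.

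Irf1: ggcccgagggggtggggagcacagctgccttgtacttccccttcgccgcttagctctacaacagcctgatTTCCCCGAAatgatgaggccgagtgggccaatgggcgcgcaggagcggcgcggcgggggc

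Bst2: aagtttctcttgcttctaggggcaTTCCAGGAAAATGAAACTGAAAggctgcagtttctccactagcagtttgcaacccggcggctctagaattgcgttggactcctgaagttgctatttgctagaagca

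Ifitm2: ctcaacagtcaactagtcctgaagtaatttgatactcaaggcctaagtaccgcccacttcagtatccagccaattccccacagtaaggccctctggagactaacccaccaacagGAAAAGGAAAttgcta

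Over the full windows, the response element core occurred in 16 of the 31 members with a window (51.6%), against 689 of 17491 protein-coding genes (3.94%). The gamma-activated site occurred in 9 of the 31 (29.0%), against 1560 (8.92%). The 16 members with the response element core had median log2 differences of 1.12, -0.44 and -0.11 in batches 1, 2 and 3. The 13 tested members with a window and no core had medians of 1.07, -0.30 and -0.10. Only exact matches inside the windows were counted, so a member without a match can still hold an element. The part of the motif in the batch pattern was not tested.

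The libraries held 27821900 to 36856500 estimated counts, and 3 counts in a library were worth 0.0749 to 0.103 CPM (counts scaled to the size of the library), the unit of all levels below, scaled by the trimmed mean of M values (TMM). On the first principal component PBS 1 lay away from the rest, at -65.6 against -15.5 to 46.5. Its TMM factor was 0.872 against 0.975 to 1.087, and pseudogenes took 2.81% of its counts against 1.83% to 2.37%. The part of these features in the low levels of PBS 1 was not tested. All 7 markers of the melanocyte lineage were detected, with summed levels of 28900 to 39100 CPM with BMP2 and 23700 to 26300 with PBS. Each of the 7 was higher with BMP2 in all 3 pairs, against 22.7% of all genes. Each had an unadjusted p under 0.05 in edgeR with the block, against 17.0% of all genes, and 0 passed after adjustment. Among 8 leukocyte markers, Adgre1 and Itgax were at 0 in all 6 libraries, and the summed level of the 8 was 0.974 to 2.98 CPM with BMP2 and 0.359 to 0.976 with PBS. Most of it was Lyz2, at 1.98 ± 1.01 CPM with BMP2 and 0.627 ± 0.297 with PBS (SD, n = 3), higher in all 3 pairs (log2 fold change 1.65, SE 0.61, edgeR adjusted p 0.839, or 0.131 with the block). The plasmacytoid dendritic cell marker Siglech had 2 counts in all. Of 4 endothelial markers 2 were at 0, with sums of 0.724 to 2.02 and 1.02 to 1.76 CPM, and the 5 fibroblast markers summed to 3.12 to 5.31 and 4.38 to 8.49 CPM. The part of these marker differences in the results was not tested, and in such bulk libraries fewer cells of a type and less RNA per cell cannot be told apart.

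In the edgeR quasi-likelihood fit of the treatment alone, 0 of the 36 members had a Benjamini-Hochberg adjusted p under 0.05, where 0.0464% of all genes tested did. At an unadjusted p under 0.05 the fit called 0 members and 5.38% of all genes. With batch as a block, 0 members were called against 0.735% of all genes, and 2 members, Irf1 and Ifitm2, had an unadjusted p under 0.05 against 17.0% of all genes. The Wald test of DESeq2 called 0 members without the block, against 1.01% of all genes, and with the block it called Irf1 lower, in a fit that called 3.19% of all genes lower. The median log2 fold change of the members, BMP2 minus PBS, was 0.17 without the block and 0.24 with it, and the median over all genes was 0.01 in both. That median rested on single libraries: it was -0.10 without PBS 1, -0.04 without BMP2 1, 0.01 without PBS 3, 0.10 without BMP2 2, 0.31 without BMP2 3 and 0.62 without PBS 2.

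Within a batch, the difference of a gene was taken as log2(CPM + 0.5) in the BMP2 library minus that in the PBS library. The members had medians of 1.12 in batch 1, -0.43 in batch 2 and -0.08 in batch 3, while the medians over all genes were 0.02, -0.00 and 0.01. In batch 1, 32 members were higher and 4 lower with BMP2, against 51.1% and 48.9% of all genes, and the middle 50% of the members lay between 0.45 and 1.51. In batch 2, 5 members were higher and 31 lower, against 49.8% and 50.2% of all genes. In batch 3, 13 were higher and 23 lower against 51.9% and 48.1%. The same 27 members were higher in batch 1 and lower in batch 2, an order found in 20.6% of all genes. Only Ddx58 and Oas1a were higher in all 3 pairs (22.7% of all genes), and Irf1, Bst2 and Ifitm2 were lower in all 3 (21.1%). The shares over members and over all genes are a description, since the members share libraries and are not independent. Each batch has a single library of either kind, so the difference between batches in the effect of BMP2 could not be tested.

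**Figure D1:**
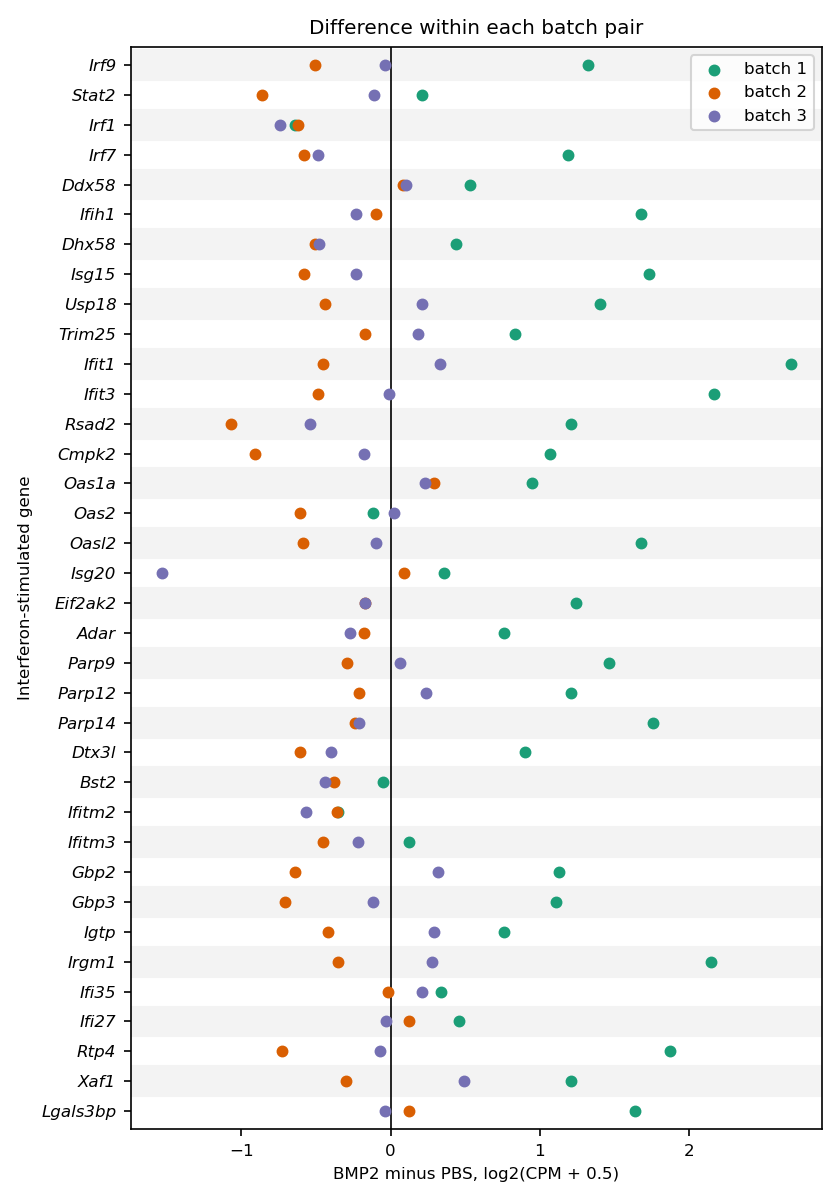
Difference between the BMP2 and PBS library of each batch, in log2(CPM + 0.5), for the 36 members tested, by role from top to bottom; each point is 1 pair. Points of batch 1 lie right of 0 for 32 members and points of batch 2 lie left of 0 for 31, while Irf1, Bst2 and Ifitm2 have all 3 points left of 0.

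Among the transcription factors of the pathway, the levels with BMP2 and PBS overlapped for all 4. Irf1 encodes a factor induced by interferon gamma that also acts outside the response. It was at 35.4, 22.7 and 15.0 CPM in BMP2 libraries 1, 2 and 3 and at 55.6, 35.1 and 25.4 in PBS libraries 1, 2 and 3. Every BMP2 library was below its own partner, while BMP2 1 stood above PBS 3 and level with PBS 2. The pair differences of Irf1 were -0.64, -0.62 and -0.74, the narrowest spread among the members. Its log2 fold change was -0.67 (SE 0.38, edgeR adjusted p 0.883) without the block and -0.68 (SE 0.14, edgeR adjusted p 0.0989) with it. DESeq2 with the block gave -0.69 (SE 0.185, adjusted p 0.0067), and over all alternatives the adjusted p of Irf1 ran from 0.0067 to 1. Irf9, the DNA-binding subunit of ISGF3, had pair differences of 1.32, -0.51 and -0.04, and Irf7, the factor that amplifies type I interferon production, had 1.19, -0.58 and -0.49. Stat2, the transactivating subunit, had 0.21, -0.86 and -0.11. Irf9, Irf7 and Stat2 thus kept the order of the batches, with batch 1 above 0 and batch 2 below, and Irf1 did not.

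The cytosolic RNA sensors were expressed in all libraries. Ddx58, which encodes RIG-I, was at 30.3, 51.5 and 34.2 CPM with BMP2 and at 20.9, 48.7 and 31.9 with PBS. Its groups overlapped, batch 2 held the highest library of either kind, and the pair differences were 0.53, 0.08 and 0.10. The log2 fold change was 0.19 (SE 0.34, edgeR adjusted p 0.931), or 0.24 (SE 0.15, 0.462) with the block. Ifih1, which encodes MDA5, was at 3.51 CPM in PBS 1 and between 8.96 and 13.5 elsewhere, with a pair difference of 1.68 in batch 1 against -0.10 and -0.23. Dhx58, which encodes the regulatory sensor LGP2, had differences of 0.44, -0.51 and -0.48.

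The genes of the ISG15 system took part in the batch pattern as a group. Isg15 encodes a ubiquitin-like protein that is attached to other proteins or secreted. It was at 16.3, 12.6 and 5.89 CPM with BMP2 and at 4.55, 19.1 and 6.98 with PBS, so PBS 1 was the lowest and PBS 2 the highest of the 6. The pair differences were 1.73, -0.58 and -0.23, and the log2 fold change was 0.18 (SE 0.57, edgeR adjusted p 0.964). Usp18, the protease that removes ISG15 and restrains IFNAR2, had differences of 1.40, -0.44 and 0.21. Trim25, a ubiquitin ligase that acts on RIG-I, had 0.83, -0.17 and 0.18. PBS 1 was the lowest and PBS 2 the highest library for all 3 genes.

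The IFIT genes and their neighbours in function showed the widest differences. Ifit1 encodes a protein that binds viral RNA lacking the host cap. It was at 16.2, 14.2 and 8.06 CPM with BMP2 and at 2.11, 19.6 and 6.32 with PBS. PBS 2 was 9.29-fold above PBS 1, and all 3 BMP2 libraries lay between those levels. The pair differences of Ifit1 were 2.68, -0.45 and 0.33, the widest range among the members tested, and its log2 fold change was 0.45 (SE 0.69, edgeR adjusted p 0.912). Ifit3, a partner of IFIT1, was at 147, 113 and 33.4 CPM with BMP2 and at 32.4, 160 and 33.6 with PBS. Both libraries of batch 3 lay close to PBS 1, and the pair differences were 2.17, -0.49 and -0.01 (log2 fold change 0.38, SE 0.72, edgeR adjusted p 0.933). Ifit3 shares 61.8% of its 31-base stretches with other genes, mainly its copy Ifit3b, so its own level is uncertain. Ifit3b had pair differences of 2.14, -0.58 and -0.12.

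Rsad2, which encodes the antiviral enzyme viperin, was given in full after its values were seen. It was at 42.3, 35.4 and 27.7 CPM with BMP2 and at 18.0, 74.7 and 40.5 with PBS, and the BMP2 libraries again lay inside the range of the PBS libraries. Its pair differences were 1.21, -1.07 and -0.54, the lowest of any member in batch 2, and its log2 fold change was -0.34 (SE 0.45, edgeR adjusted p 0.903). With batch 1 left out and the block kept, Rsad2 fell by 0.82 (SE 0.15, edgeR adjusted p 0.0343) and Irf1 by 0.70 (0.0398). That fit rested on batches 2 and 3 alone and called 2.39% of all genes lower. With batch 2 or batch 3 left out, 0 members were called, where 0.137% and 0.782% of all genes were called lower. The adjusted p of Rsad2 ran from 0.0343 to 1 over all alternatives. Cmpk2, a mitochondrial nucleotide kinase gene next to Rsad2 on chromosome 12, had differences of 1.07, -0.91 and -0.18.

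**Figure D2:**
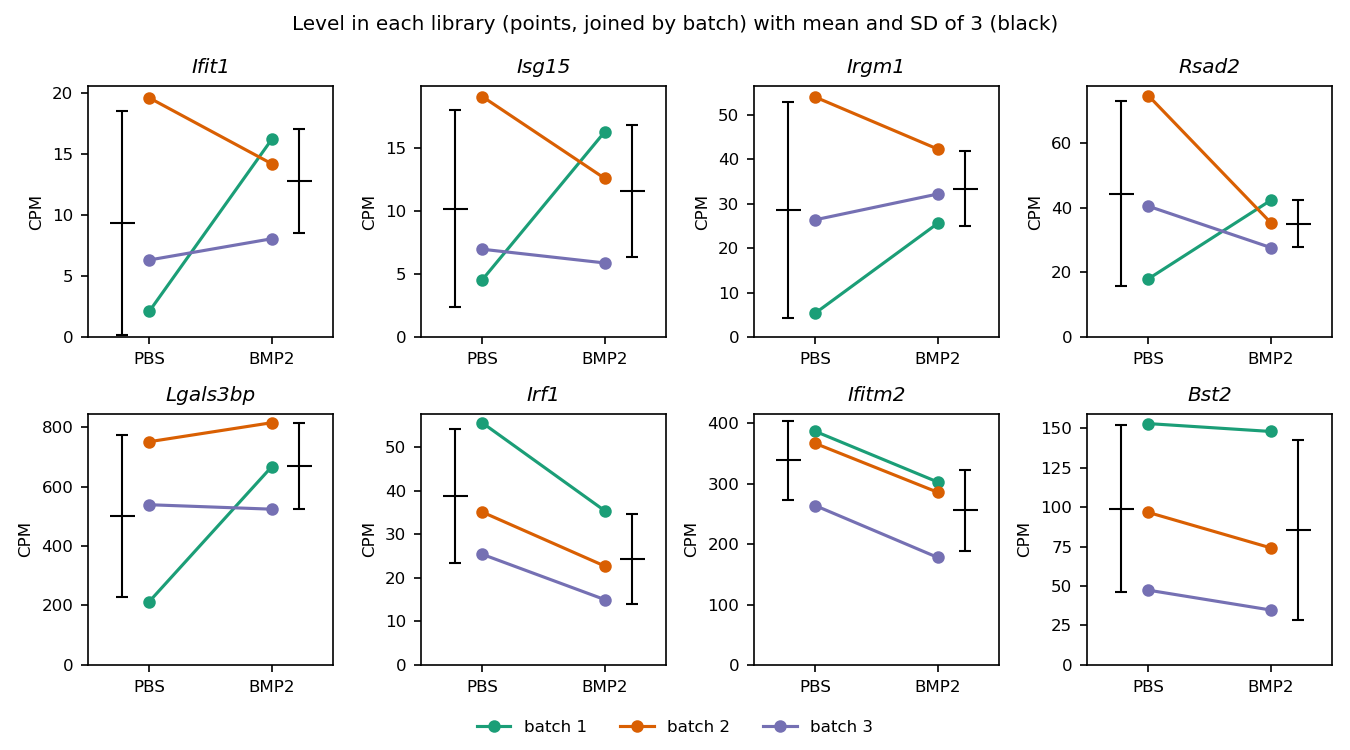
Level in CPM of 8 members in each library, with PBS left and BMP2 right, lines joining the libraries of a batch, and black bars for the mean and SD of 3 libraries. Lines of batch 1 climb steeply for Ifit1, Isg15, Irgm1, Rsad2 and Lgals3bp from a low PBS 1, and all 3 lines descend for Irf1, Ifitm2 and Bst2.

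Enzymes that act on RNA were less uniform. Oas1a, which encodes an oligoadenylate synthetase that activates RNase L, was at 5.99, 4.73 and 3.15 CPM with BMP2 and at 2.86, 3.77 and 2.60 with PBS. BMP2 3 was the only BMP2 library below a PBS library, PBS 2, and the pair differences were 0.95, 0.29 and 0.23. The log2 fold change was 0.58 (SE 0.36, edgeR adjusted p 0.883), or 0.55 (SE 0.28, 0.367) with the block. Oas1a shares 68.8% of its 31-base stretches with other genes, mainly Oas1g, whose pair differences were -0.01, 0.08 and 0.21. Oasl2, an oligoadenylate synthetase-like gene, had differences of 1.68, -0.59 and -0.10, and Oas2, at 0.0898 to 0.927 CPM, had -0.12, -0.61 and 0.02. Eif2ak2, which encodes the translation-blocking kinase PKR, had 1.24, -0.17 and -0.17, and Adar, the editor of double-stranded RNA, had 0.76, -0.18 and -0.27. Isg20, an exonuclease gene, stood apart through 1 library: BMP2 3 was at 4.97 CPM and the other 5 at 13.6 to 17.6, which gave pair differences of 0.36, 0.09 and -1.53.

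The ADP-ribosyltransferases and DTX3L were lower in PBS 1 than in any other library, for all 4 genes. Parp12, whose product restrains viral translation, was at 45.1, 36.7 and 37.6 CPM with BMP2 and at 19.2, 42.5 and 31.8 with PBS. PBS 2 lay inside the BMP2 range and the other PBS libraries below it, and the pair differences were 1.21, -0.21 and 0.24 (log2 fold change 0.35, SE 0.29, edgeR adjusted p 0.883). Parp9 had differences of 1.46, -0.29 and 0.06, and Dtx3l, which forms a ubiquitin ligase with PARP9, had 0.90, -0.61 and -0.40. Parp14 had 1.76, -0.24 and -0.21.

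Among the membrane restriction factors, Ifitm2 and Bst2 were lower with BMP2 in all 3 pairs, while Ifitm3 was higher in batch 1 and lower in batch 2. The group included the most abundant members. Per kilobase of annotated exon, the mean levels over all 6 libraries were 454 CPM for Ifitm2, 208 for Ifitm3, 205 for Lgals3bp, 102 for Bst2 and 96.2 for Ifi27, while Ifit3 stood at 49.7 and Isg15 at 14.4. Ifitm2 and Ifitm3 encode proteins that block fusion of viruses in endosomes. Ifitm2 was at 303, 286 and 178 CPM with BMP2 and at 387, 367 and 264 with PBS. Each BMP2 library was below its partner, and the groups overlapped through PBS 3. The pair differences were -0.35, -0.36 and -0.57, and the log2 fold change was -0.41 (SE 0.26, edgeR adjusted p 0.883), or -0.43 (SE 0.13, 0.206) with the block. Over all alternatives the adjusted p of Ifitm2 ran from 0.065 to 1. It shares 55.4% of its 31-base stretches with other genes, which leaves its own level uncertain.

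Bst2, which encodes tetherin, a protein that holds budding virions at the cell surface, was at 148, 74.2 and 34.8 CPM with BMP2 and at 153, 96.7 and 47.4 with PBS. The batches differed far more than the treatments, with batch 1 highest and batch 3 lowest in both groups, and PBS 1 was the highest library. The pair differences were -0.05, -0.38 and -0.44, and the log2 fold change was -0.21 (SE 0.55, edgeR adjusted p 0.954), or -0.29 (SE 0.14, 0.326) with the block. Without the block, Bst2 was at 0.24 when PBS 1 was left out and at 0.16 when BMP2 3 was. Both values were above 0, against the direction of the pairs. With any other single library left out, Bst2 was at -0.86 to -0.13. The small difference in batch 1 depended on TMM. Bst2 had 4310.0 of 27821900 estimated counts in BMP2 1 and 4709.7 of 35274700 in PBS 1. As a share of these totals it was higher with BMP2, as was the median over all genes (0.26 without TMM). Ifitm3 was at 180, 135 and 83.0 CPM with BMP2 and at 166, 185 and 97.0 with PBS. Batch 3 held its lowest library of either kind, and the pair differences were 0.12, -0.45 and -0.22 (log2 fold change -0.17, SE 0.34, edgeR adjusted p 0.939). Ifitm1 had 2 counts in BMP2 2 and 0 in the other 5 libraries and was not tested. In this group PBS 1 was the lowest library for 0 of the 3 tested genes.

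The interferon-inducible GTPases act against intracellular pathogens, and all 4 had PBS 1 lowest and PBS 2 highest. Irgm1, a regulator of the family at internal membranes, was at 25.6, 42.3 and 32.2 CPM with BMP2 and at 5.40, 54.0 and 26.4 with PBS. PBS 2 was 10.0-fold above PBS 1, the largest such ratio among the members tested, and the 3 BMP2 libraries lay between them. The pair differences of Irgm1 were 2.15, -0.35 and 0.28, and its log2 fold change was 0.22 (SE 0.65, edgeR adjusted p 0.961). Gbp2 and Gbp3, guanylate-binding protein genes, had differences of 1.13, -0.64 and 0.32 and of 1.11, -0.71 and -0.12. Igtp, which encodes the immunity-related GTPase IRGM3, had 0.76, -0.42 and 0.29.

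The remaining members have varied or less settled roles. Rtp4, a chaperone of receptors with antiviral activity, was at 20.6, 16.8 and 6.42 CPM with BMP2 and at 5.30, 28.2 and 6.77 with PBS. Batch 3 and PBS 1 were low and PBS 2 was highest, and the pair differences were 1.87, -0.73 and -0.07 (log2 fold change 0.12, SE 0.67, edgeR adjusted p 0.979). Xaf1, a gene of interferon-induced apoptosis, was at 28.0, 15.9 and 7.62 CPM with BMP2 and at 11.8, 19.6 and 5.27 with PBS. Its groups overlapped, with batch 3 lowest in both, and the pair differences were 1.21, -0.30 and 0.49 (log2 fold change 0.48, SE 0.56, edgeR adjusted p 0.894). Lgals3bp, a secreted glycoprotein that binds galectin-3, was at 667, 815 and 524 CPM with BMP2 and at 213, 751 and 539 with PBS. Only PBS 1 was far from the rest, and the pair differences were 1.64, 0.12 and -0.04 (log2 fold change 0.42, SE 0.42, edgeR adjusted p 0.889).

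Ifi35, which encodes a leucine zipper protein, and Ifi27, a mitochondrial protein gene, varied least. Their highest and lowest libraries differed by 1.43-fold for Ifi35 and 1.72-fold for Ifi27, and their pair differences lay between -0.03 and 0.46. Ifi44 had 17.0, 2.8 and 3.2 estimated counts with BMP2 and 0, 22.8 and 1.7 with PBS, and was not tested. Its high libraries were BMP2 1 and PBS 2.

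Read by library rather than by treatment, PBS 1 was lowest of 6 for 23 of the 36 members, against 30.9% of all genes, and PBS 2 was highest for 21, against 11.6%. Both held for 18 members, against 3.53% of all genes. PBS 1 was highest for 3, namely Irf1, Bst2 and Ifitm2, against 29.7%. Relative to the mean of each member over the 6 libraries, the median deviation was -0.67 on the log2 scale in PBS 1 and 0.57 in PBS 2. It was 0.41, 0.21 and -0.33 in BMP2 1, 2 and 3 and -0.26 in PBS 3. The PBS libraries thus held both extremes, and the BMP2 libraries lay between them.

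The spread within groups was larger with PBS. The SD of log2(CPM + 0.5) over 3 libraries had a median of 0.72 with PBS and 0.42 with BMP2, against 0.31 and 0.28 over all genes, and it was larger with PBS for 24 of 36 members (55.4% of all genes). PBS 2 exceeded PBS 1 by a median of 1.18 on the log2 scale, against -0.00 over all genes, while BMP2 2 minus BMP2 1 had a median of -0.26. The BMP2 and PBS libraries did not separate for any member: groups without overlap were seen in 0 of 36 members and in 12.1% of all genes.

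**Figure D3:**
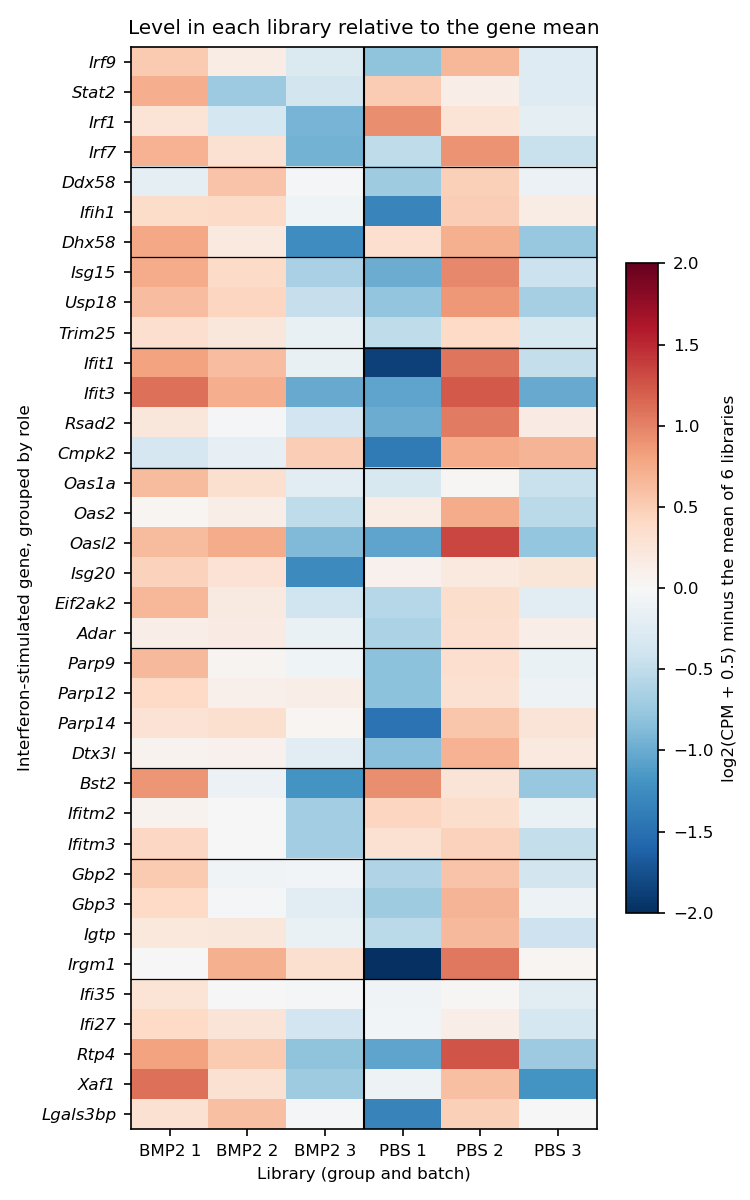
Level of each tested member in each of the 6 libraries as log2(CPM + 0.5) minus its mean over the libraries, with lines between roles; red is above and blue below the mean, with colours ending at 2 in either direction. The PBS 1 column is blue for most members (median -0.67) and the PBS 2 column red (median 0.57), while Irf1, Bst2 and Ifitm2 are red in PBS 1.

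Interferon transcripts themselves were nearly absent. Of 21 ligand genes, 18 had 0 counts in all 6 libraries, which allows up to 0.0749 to 0.103 CPM in each library for counting error only. Ifne had 1 count in BMP2 1 and 1 in PBS 3, and Ifnk had 1 in BMP2 1. Ifnz, a ligand gene of which 83.4% of 31-base stretches occur in other genes, was at 0.514 and 0.263 CPM in BMP2 1 and 2, at 0 in BMP2 3, and at 0.455, 0.393 and 0.419 with PBS (edgeR adjusted p 0.903). Counts this low cannot show a difference between libraries, and the part of the ligands in the levels of the members was not tested.

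Of 15 genes for interferon receptors and their signalling, 14 were found and tested, and 0 passed in either fit. Of these 14, 0 had an unadjusted p under 0.05 in edgeR without the block (5.38% of all genes) and 2 with it (17.0%). Their median differences were 0.18, -0.23 and -0.19 in batches 1, 2 and 3, smaller in batch 1 than those of the members. Socs3, a feedback inhibitor of JAK kinases, was at 10.2, 14.5 and 5.89 CPM with BMP2 and at 16.5, 26.0 and 11.9 with PBS. Like Irf1 it was below its partner in each batch, by -0.67, -0.82 and -0.95, and it did not pass (log2 fold change -0.85, SE 0.17, edgeR adjusted p 0.0967 with the block, 0.883 without).

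Jak1, the kinase shared by the receptors, was at 82.4, 106 and 90.6 CPM with BMP2 and at 132, 138 and 107 with PBS, and the groups did not overlap at the precision of the table. With the block its log2 fold change was -0.43 (SE 0.14, edgeR adjusted p 0.219). Ptpn2 and Ptpn6, phosphatases that dampen JAK and STAT signalling, had -0.29 (0.32) and 0.34 (0.332).

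Of 20 listed names for nucleic acid sensing upstream of interferon, 18 were in the table and 15 were tested, and 0 passed in either fit. Of these 15, 0 had an unadjusted p under 0.05 in edgeR without the block (5.38% of all genes) or with it (17.0%). Their median differences were 0.26, 0.06 and 0.03 in batches 1, 2 and 3. Tlr3, the endosomal receptor of double-stranded RNA, was at 13.5, 24.6 and 24.3 CPM with BMP2 and at 3.51, 19.5 and 20.1 with PBS. PBS 1 was again the lowest library, while all 3 pairs were above 0, at 1.80, 0.33 and 0.27 (log2 fold change 0.80, SE 0.34, edgeR adjusted p 0.294 with the block). With the block, Ikbke, a kinase that activates IRF factors, was at 0.55 (0.342), Irf5, such a factor, at -0.64 (0.409), and Tmem173, which encodes the DNA-sensing adaptor STING, at 0.28 (0.431).

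A further 55 interferon-stimulated genes were listed, of which 54 were found and 35 tested. Their medians were 0.56, -0.32 and 0.21 in batches 1, 2 and 3. Of the 35, 20 were higher in batch 1 and lower in batch 2, the order seen in 27 of the 36 members and 20.6% of all genes. Without the block 0 passed and 2 had an unadjusted p under 0.05 in edgeR, against 5.38% of all genes. With the block 1 fell, against 0.364% of all genes called lower: Cxcl10, a chemokine that draws T cells through CXCR3. Cxcl10 (chr5:92346638-92348889, minus strand, GRCm38) was at 2.77, 1.75 and 1.07 CPM with BMP2 and at 24.5, 5.90 and 6.26 with PBS. All BMP2 libraries were below all PBS libraries, and PBS 1, where most members were lowest, was the highest for Cxcl10. The pair differences were -2.93, -1.51 and -2.10.

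Cxcl10 fell by 2.49 on the log2 scale (SE 0.32, edgeR adjusted p 0.036) with the block, and its fold change was -2.71 (SE 0.65, edgeR adjusted p 0.404) without it. With the block it also passed without batch 1 (-2.14, edgeR adjusted p 0.0194), batch 2 (-2.85, 0.0438) or batch 3 (-2.47, 0.000371). These fits of Cxcl10 share pairs and hold fewer libraries than the full fit, so they are not separate tests. Without the block, leaving out PBS 1 brought the value to -1.72 (edgeR adjusted p 0.474), and over all alternatives the adjusted p of Cxcl10 ran from 2.63e-10 to 0.999. Herc6, the main ligase of ISG15 in mice, was at 47.1 ± 8.39 CPM with BMP2 and at 30.6 ± 5.90 with PBS (SD, n = 3). Its groups did not overlap and all pairs were above 0, at 0.94, 0.38 and 0.52 (log2 fold change 0.62, SE 0.16, edgeR adjusted p 0.158 with the block). Psmb8, an immunoproteasome subunit gene at 0.125 to 1.92 CPM, was at -1.56 (0.271), and Oasl1, a translational repressor of Irf7 at 0.293 to 1.44 CPM, at 1.29 (0.294).

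**Figure D4:**
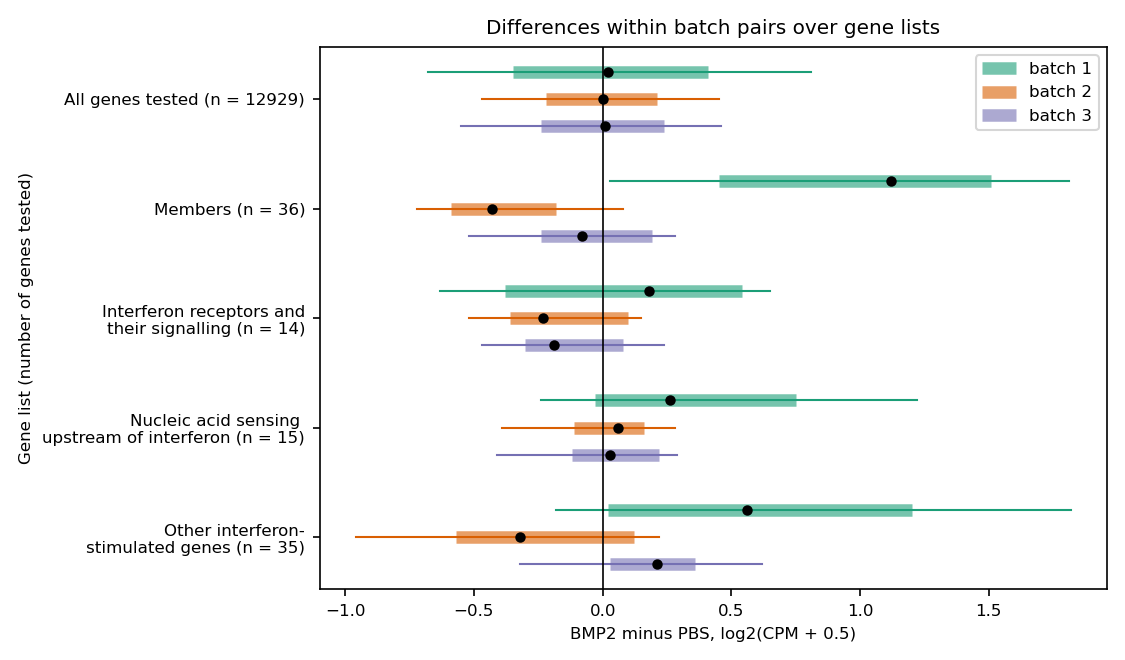
Differences between the BMP2 and PBS library in log2(CPM + 0.5) over the genes of each list, by batch: points are medians, bars the middle 50% and thin lines the middle 80% of genes. The members have medians of 1.12, -0.43 and -0.08 in batches 1, 2 and 3, and the other interferon-stimulated genes 0.56, -0.32 and 0.21, while all genes tested are centred at 0.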

How the data were processed

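RNA was measured in 6 B16F10 cultures, 3 per group, from TruSeq libraries of 500 ng of total RNA, per the labels' protocols. The deposited values are estimated counts for each gene, from kallisto 0.44.0 and the build GRCm38.p6 per the submitters' processing notes. How transcripts were summed to genes and the annotation release were not given in the sources used here. Only 0.025% of non-zero values were whole (tolerance 1e-06), and values near 1 clustered at 0.977 to 1.015 by library, so some scaling may have been applied. Kallisto divides reads shared by several transcripts, which makes genes with copies less certain. Identifiers were matched to GENCODE M21 for 34679 genes, and 302 had no match.

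Counts were rounded and tested with edgeR 4.0.16 (quasi-likelihood, default filter on low counts, TMM) in R 4.3.3, with Benjamini-Hochberg adjustment over 12929 genes and a threshold of 0.05. The main model held the treatment alone. Per the labels, a replicate number stands for a batch. A model with batch as a block was therefore planned as an alternative (2 residual degrees of freedom against 4, and fewer with a batch left out). Deviations from group means correlated at 0.48, 0.21 and 0.46 within batches and at -0.47 to 0.03 between them. The deviations of a group cancel out, so positive values within batches make those between them lower. Each edgeR SE was the size of the log2 fold change divided by the square root of F. The other tool was DESeq2 1.42.0, which gave its own SE. Exon lengths for levels per kilobase were the union of GENCODE exons. A pseudocount of 0.5 CPM was added for pair differences. Only the edgeR fits were tested on simulated counts. These had no batch differences and no deviating library, so that test does not bear on the batch pattern.

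Members and lists were chosen with earlier results of these data known. Values in every library are given for members past the threshold in either edgeR fit, the 10 with the smallest unadjusted p with the block, the 5 with the widest range of pair differences and the 3 highest per kilobase. Up to 4 genes of each other list were named by the smallest unadjusted p with the block. Sequences are from RefSeq, and 7 members had no entry matched. Values of some listed genes that are not members are not reported here.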

Additional observations from a re-analysis of the deposited data

How the results depend on the processing

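Of the 36 members tested, 0 were called by edgeR without the block (0.0464% of all genes), and 0 with the block (0.735%), so that 0 is near the background. The block moved their median log2 fold change from 0.17 to 0.24. The count was 1 with DESeq2 and the replicate block (Irf1, against 3.19% of all genes called lower) and 2 with batch 1 left out and the block kept (Irf1 and Rsad2, against 2.39%), each lower, and 0 under every other alternative run. The median was -0.25, 0.56 and 0.30 with batch 1, 2 or 3 left out and the block kept, and -0.31, 0.59 and 0.19 without the block. With a pseudocount of 2 the pair medians were 0.80, -0.36 and -0.06, and without TMM 1.33, -0.41 and -0.02, where all genes were at 0.26, 0.02 and 0.08. The direction of Bst2 in batch 1 turned without TMM.

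Signs turned when batch 1 was left out with the block for Isg15 (-0.44), Ifit1 (-0.08), Ifit3 (-0.27), Irgm1 (-0.04) and Rtp4 (-0.44). Without the block they turned for Isg15 (-0.51), Ifit1 (-0.23), Ifit3 (-0.40), Parp12 (-0.01), Irgm1 (-0.12), Rtp4 (-0.60) and Xaf1 (-0.09). Without batch 2 and the block, Ifitm3 was at 0.01 and Rsad2 at 0.26. With the block, Rsad2 was at 0.34 without batch 2 and at 0.06 without batch 3. The cause of these changes was not tested. With single libraries left out, values ran from -0.08 to 0.55 for Ddx58, -0.18 to 1.01 for Isg15, -0.03 to 1.60 for Ifit1, -0.04 to 1.57 for Ifit3, -0.86 to 0.24 for Bst2, -0.45 to 0.07 for Ifitm3, -0.28 to 1.07 for Irgm1, -0.27 to 1.28 for Rtp4, -0.06 to 1.01 for Xaf1 and -0.72 to 0.27 for Rsad2. The signs of Irf1, Oas1a, Parp12, Ifitm2 and Lgals3bp held there.

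Batches without the block, the pseudocount of 2, no TMM and the summing of copies at 60% shared 31-mers (Ifit3 with Ifit3b, Oas1a with Oas1g) were chosen after seeing the data, and the summing changed no call. The planned summing at 80% joined no member and gave no value.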
